A study of Mus musculus with 3 samples.

Results

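The cardiac genes described here are 10 genes of heart muscle, grouped under the name of the atrial-type muscle that covers the pulmonary veins of the mouse. The arrays do not show which cells their RNA came from. They are Myl7, Myl4, Myh6, Actc1, Tnnt2, Tnni3, Nppa, Ryr2, Pln and Sln, and they were taken as the rows of the deposited table whose platform annotation gives one of these symbols. All 10 symbols were found, each on 1 probe set, among 22180 named genes and 41345 probe sets. The genes were chosen by earlier results of these arrays, in which the quantile-normalized values of heart muscle genes lay lower on the urethane lung. Every value below is therefore a description, and no test was run on it.

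Each of 3 arrays held total RNA of 1 source. The urethane lung came from FVB mice, an inbred strain, 1 week after an intraperitoneal injection of urethane (ethyl carbamate, a carcinogen that gives lung tumours in mice). The saline lung came from FVB mice injected with saline, and the sources used here do not state when it was collected. FULA 1 is a mouse lung adenocarcinoma cell line, grown in DMEM with 10% fetal bovine serum. FULA 1 served as the level in epithelial tumour cells without heart muscle. Those sources do not state the age and sex of the mice, how many mice stand behind a lung array, or how much of the large vessels at the lung root was kept. With 1 array per group there is no replicate spread, no p-value and no standard error, and each difference compares these arrays rather than the conditions.

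In the mouse, a sleeve of cardiomyocytes runs from the left atrium along the pulmonary veins into the lung. These cells carry the atrial forms of the myosin light chains, contract with the atrium, and secrete atrial natriuretic peptide. Their contraction follows the heart's usual cycle: calcium leaves the sarcoplasmic reticulum through the ryanodine receptor, binds the troponin complex on the thin filament, and is pumped back by the calcium ATPase SERCA2, which phospholamban and sarcolipin restrain.

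The deposited log2 values of the 3 arrays did not share a scale: their medians were 1.22 on the urethane lung, 0.08 on the saline lung and 4.96 on FULA 1. Levels are therefore given in 2 ways, as the percentile rank of the probe set on its own array and as the log2 value after quantile normalization of the 3 arrays. Ranks of different genes are not compared as levels, since probe sets differ in brightness. The 95th percentile of 1105 olfactory receptor genes, which lung is not known for transcribing, served as a mark of background on each array. This mark lay at percentile rank 59.2 on the urethane lung, 59.6 on the saline lung and 46.5 on FULA 1. Marker genes were read on the urethane lung, saline lung and FULA 1, in that order. Scgb1a1 of club cells had ranks of 99.9, 99.9 and 20.3, and the lung marker Foxj1 82.5, 83.8 and 35.8. Sftpc of alveolar type II cells had 99.8, 99.8 and 53.5, and Pecam1 of endothelium 96.2, 96.4 and 52.3. The lung marker Ager had 98.9, 98.8 and 68.3. On FULA 1, Sftpc, Pecam1 and Ager thus lay above the mark as well. Of the epithelial markers, Krt8 (93.4, 92.7 and 99.7) and Krt18 (71.5, 65.2 and 87.5) ranked highest on FULA 1. Epcam (87.9, 81.2 and 74.7) ranked lowest there.

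The promoters of the 4 genes with the lowest differences between the lungs are shown. That contrast also took part in the choice of the cardiac genes, and a part of these sequences in the differences was not tested. The sequences are from RefSeq (GRCm38.p6), run 250 bases before to 50 bases after the annotated start of the gene, and are written along the gene's own strand. The windows are chr11:5898733-5899032 on the minus strand for Myl7, chr4:148000472-148000771 on the plus strand for Nppa, chr2:114052826-114053125 on the minus strand for Actc1 and chr1:135836084-135836383 on the plus strand for Tnnt2. Capitals mark matches, on either strand, to motifs tied to heart muscle genes or to transcription start. These were TATAAA of core promoters, the letters AGATAA read by the factor family of Gata4, and the core AAGTG of the site of Nkx2-5. The others were CATTCC, the core of the element that TEAD factors bind, the MEF2 motif and the CArG box of serum response factor.
Myl7: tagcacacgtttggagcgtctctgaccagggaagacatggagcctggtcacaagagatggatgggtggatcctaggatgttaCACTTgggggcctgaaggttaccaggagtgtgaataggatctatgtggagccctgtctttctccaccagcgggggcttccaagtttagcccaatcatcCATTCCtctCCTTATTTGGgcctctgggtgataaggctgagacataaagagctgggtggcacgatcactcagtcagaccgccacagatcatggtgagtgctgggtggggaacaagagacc
Nppa: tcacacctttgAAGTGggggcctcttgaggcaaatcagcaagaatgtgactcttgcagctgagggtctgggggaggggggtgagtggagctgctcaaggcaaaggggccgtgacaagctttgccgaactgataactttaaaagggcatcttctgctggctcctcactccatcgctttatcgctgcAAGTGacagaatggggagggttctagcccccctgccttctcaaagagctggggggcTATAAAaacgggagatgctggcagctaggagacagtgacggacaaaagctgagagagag
Actc1: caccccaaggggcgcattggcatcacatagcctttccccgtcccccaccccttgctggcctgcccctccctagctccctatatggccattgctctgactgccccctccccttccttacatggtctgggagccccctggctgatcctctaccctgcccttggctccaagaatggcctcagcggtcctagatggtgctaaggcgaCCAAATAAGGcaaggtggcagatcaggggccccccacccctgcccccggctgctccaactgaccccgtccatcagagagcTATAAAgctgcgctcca
Tnnt2: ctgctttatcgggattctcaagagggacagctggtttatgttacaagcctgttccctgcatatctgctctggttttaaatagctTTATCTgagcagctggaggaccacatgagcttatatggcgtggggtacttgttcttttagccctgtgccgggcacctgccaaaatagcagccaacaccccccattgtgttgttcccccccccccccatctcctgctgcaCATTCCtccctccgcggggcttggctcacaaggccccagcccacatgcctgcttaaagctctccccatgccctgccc

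A CArG box began 61 bases before the start of Myl7 and 47 bases before the start of Actc1. Only these 2 of the 9 cardiac genes with a RefSeq window held one, against 1.63% of all 32851 windows in the table. In the Myl7 window CATTCC began 70 bases before the start, just upstream of the CArG box and not overlapping it. Nppa held AAGTG at 239 and 65 bases before its start and TATAAA at 9 bases before. Tnnt2 held CATTCC at 27 bases before its start and AGATAA, on the other strand, at 166 bases before; it has a second window in the table, which held none of the motifs. Over the 9 genes, AAGTG was found in 5, TATAAA in 4, CATTCC in 3 and AGATAA in 2. TATAAA began 219 bases before the annotated start in Pln and 9 bases before it in Nppa. In Myh6 and Actc1 it began after the annotated start, by 1 and 33 bases. All distances rest on the annotated starts, which were not checked here. The shares of all windows were 46.4% for AAGTG, 13.6% for TATAAA, 14.7% for CATTCC and 11.2% for AGATAA. The MEF2 motif was found in none of the 9 and in 0.557% of all windows. A match here is a match of letters and not a measured site. For the Gata4 family only AGATAA was searched, so a window without it may hold variant letters.

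**Figure D1:**
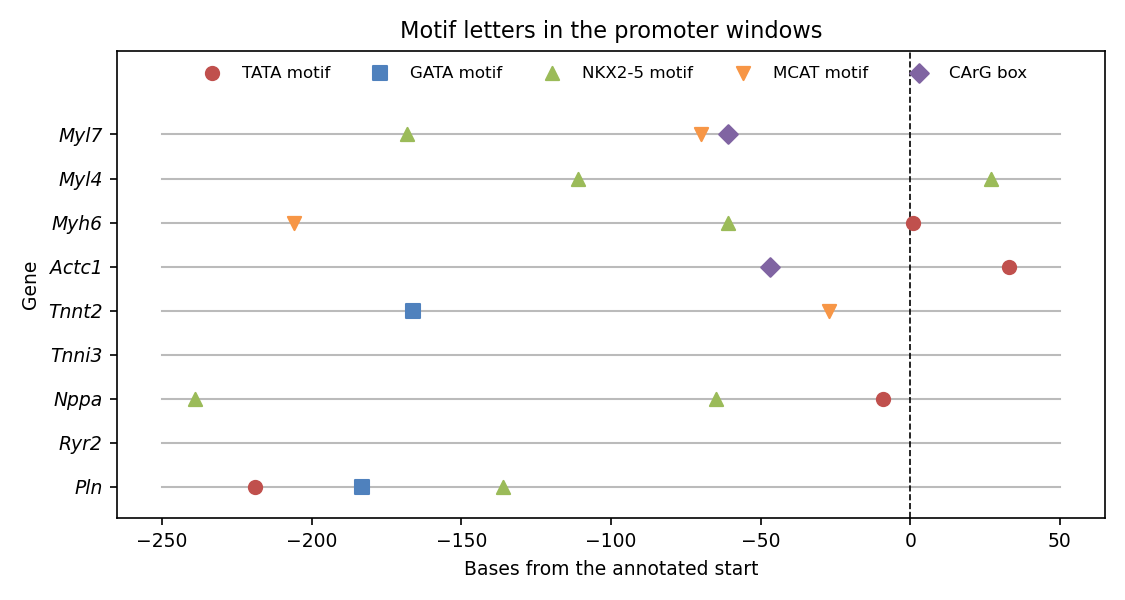
Position of the motif matches in the promoter windows of 9 cardiac genes, in bases from the annotated start (dashed line); each symbol stands where a match begins, on either strand. The 2 CArG boxes lie 61 and 47 bases before the starts of Myl7 and Actc1, and the windows of Tnni3 and Ryr2 hold no match.

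On both lungs, 8 of the 10 cardiac genes lay above the background mark and 2, Ryr2 and Sln, below it. The mark itself was passed by 48.9% of all genes on the urethane lung and by 49.5% on the saline lung. On FULA 1 the mark was passed by 2 of the 10, Tnnt2 and Tnni3, and by 58.2% of all genes. The other 6 genes, Myl7, Myl4, Myh6, Actc1, Nppa and Pln, lay above the mark on both lungs and below it on FULA 1, a pattern held by 4.64% of all genes. With a stricter mark chosen after the data were seen, the 99th percentile of the olfactory receptor genes, 6 of the 10 lay above it on the urethane lung, where 28% of all genes did, and 8 on the saline lung, where 27.6% did. Nppa and Pln, besides Ryr2 and Sln, were the genes below it on the urethane lung.

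**Figure D2:**
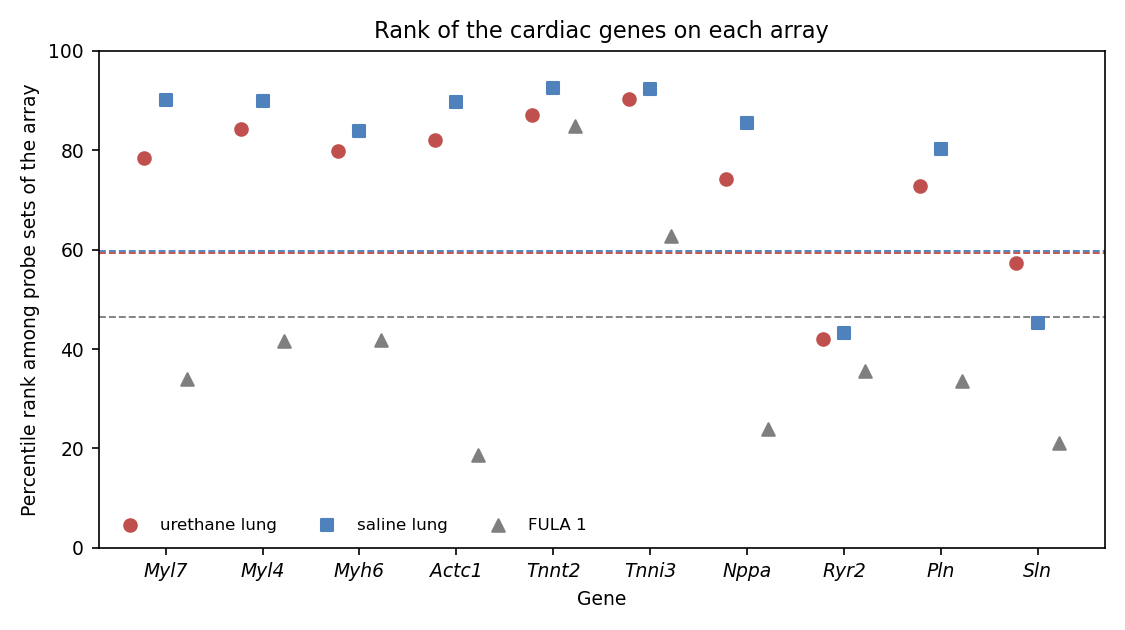
Percentile rank of each of the 10 cardiac genes among the probe sets of the urethane lung, saline lung and FULA 1 arrays; dashed lines show the background mark of each array in its colour. For 8 genes both lung points lie above the marks, with the urethane point below the saline point, while Ryr2 and Sln lie below the marks on both lungs.

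Between the lungs, the 8 genes above the mark were all lower on the urethane lung than on the saline lung, by 0.37 to 1.34 on the log2 scale. Over all 10 genes the median difference (urethane minus saline) was -0.67, where the median over all 22180 genes was -0.06. Of the 10 genes 2, Myl7 and Nppa, were at least 2-fold lower and none was at least 2-fold higher, counted where the higher value reached the floor of 2.37, the median of all gene values. At least 2-fold lower were 164 of the 12519 genes past this floor (1.31%), and at least 2-fold higher were 409 (3.27%). A difference below 0 was found in 9 of the 10 genes and in 55.6% of all genes. Since this contrast took part in the choice of the genes, nothing is read from these counts. As whole tissue was measured, fewer heart muscle cells and less of each RNA per cell cannot be told apart. Nor can they be told from the amount of vessel kept or, with 1 array per lung, from array error.

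The atrial myosin light chains come first among the sarcomere genes. Myl7, the regulatory light chain of atrial myosin, lay at percentile rank 78.4 on the urethane lung, 90.1 on the saline lung and 33.9 on FULA 1. Its normalized log2 values were 3.58, 4.92 and 1.62 on the same arrays. The urethane lung was thus lower by 1.34 (2.52-fold), and 0.232% of the genes past the floor had a difference as low or lower. Myl4, the essential light chain of atrial myosin, had ranks of 84.2 on the urethane lung, 89.9 on the saline lung and 41.7 on FULA 1. Its normalized values were 4.14, 4.90 and 1.84, a difference between the lungs of -0.77 (1.70-fold lower on the urethane lung). The saline value of Myl4 was shared by 69 probe sets, so its place there is coarse, whereas the Myl7 value was its own on each array.

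Myh6 encodes the alpha myosin heavy chain, the main motor of mouse atria and adult ventricles. It lay at rank 79.8 on the urethane lung, 83.8 on the saline lung and 41.8 on FULA 1, with normalized values of 3.71, 4.08 and 1.84. The difference between the lungs, -0.37, was the smallest in size among the 8 genes above the mark. Myh6 has a close neighbour and relative in Myh7, so its value is uncertain.

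The thin filament genes are those of actin and the troponins. Actc1, the alpha actin of heart muscle, stood at rank 82.0 on the urethane lung, 89.6 on the saline lung and 18.7 on FULA 1, with normalized values of 3.92, 4.85 and 1.23. Its difference between the lungs was -0.94 (1.91-fold lower on the urethane lung), just short of 2-fold; actin genes are alike in sequence, so this value is uncertain too. Tnnt2, the troponin subunit that binds tropomyosin, had ranks of 87.0 on the urethane lung, 92.4 on the saline lung and 84.9 on FULA 1. With normalized values of 4.47, 5.39 and 4.21, it differed by -0.93 between the lungs, and it lay above the mark on FULA 1 as well. Tnni3, the inhibitory troponin subunit of adult heart muscle, had ranks of 90.2, 92.4 and 62.7 on the urethane lung, saline lung and FULA 1. Its normalized values were 4.96, 5.38 and 2.60, and its difference between the lungs was -0.43.

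Nppa encodes the precursor of atrial natriuretic peptide, the hormone by which atrial muscle promotes salt loss. It lay at rank 74.2 on the urethane lung, 85.6 on the saline lung and 23.9 on FULA 1. The normalized values were 3.27, 4.28 and 1.36, so Nppa was lower by 1.01 (2.01-fold) on the urethane lung, and 1.21% of the genes past the floor had a difference as low or lower. This value sat at the 2-fold line: the difference became -0.87 when the lungs alone were normalized together, -0.77 with all arrays set to the same median and -0.81 after a lowess curve was subtracted, and Myl7 was then the only one of the 10 past 2-fold, at -1.24, -1.17 and -1.17. With the quantiles of FULA 1 as the target, Nppa was at -1.29 and Actc1 at -1.02, and 3 of the 10 passed 2-fold. With an offset of 32 added on the linear scale, Myl7 was at -0.50 and none of the 10 passed 2-fold. The shares of all genes past 2-fold under these other scalings are not given, so nothing is read from these counts.

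Of the 3 calcium handling genes, 1 lay above the mark on the lungs. Pln, the gene of phospholamban, had ranks of 72.7 on the urethane lung, 80.2 on the saline lung and 33.6 on FULA 1, with normalized values of 3.18, 3.75 and 1.62. Its difference between the lungs was -0.57 (1.48-fold lower on the urethane lung). Ryr2, the cardiac ryanodine receptor, lay below the mark on every array, at ranks of 42.1, 43.2 and 35.6 on the urethane lung, saline lung and FULA 1. Sln, the gene of sarcolipin, which is abundant in mouse atria, lay below the mark too, at ranks of 57.3, 45.2 and 21.1. Its saline value was shared by 114 probe sets. No size is given for Ryr2 and Sln, and below the mark a probe set does not show whether the RNA was present. Of the 10 genes, 8 were thus above the mark on the lungs, 2 of these (Tnnt2 and Tnni3) were above it on FULA 1 as well, and of the 4 atrial genes Myl7, Myl4, Nppa and Sln the last was not seen above background.

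**Figure D3:**
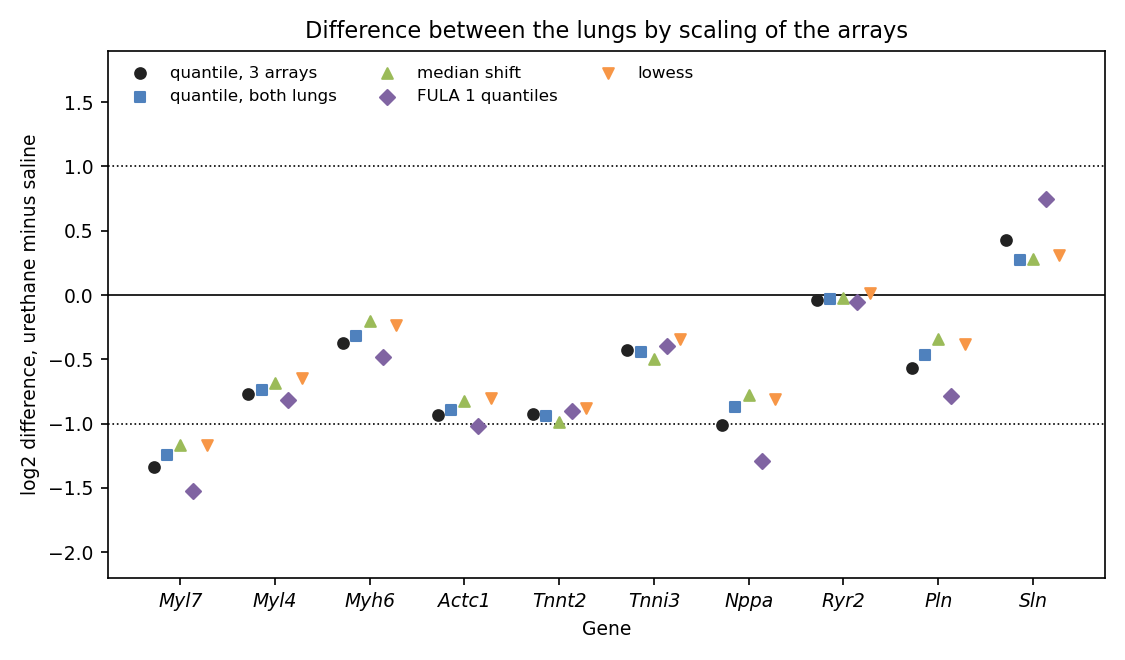
Difference between the lungs (log2, urethane minus saline) for each cardiac gene under 5 scalings of the arrays; dotted lines mark 2-fold. Myl7 lies below the lower dotted line under each of the 5, at -1.17 to -1.52 (an offset of 32, not drawn, gave -0.50), and the 8 genes above the background mark stay below 0 under each of them.

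For the 8 genes above the mark, the direction held under each scaling tried except the values as deposited. As deposited, 9 of the 10 genes were higher on the urethane lung, and Myl7 was at -0.02, but the median of all genes was also 1.09 higher there. Relative to that median, 8 of the 10 genes lay lower on the urethane lung, as they did under each other scaling tried. To show how far probe sets of a gene disagree, 656 genes past the floor carried 2 each. The differences read by the 2 lay a median of 0.40 apart (log2). Both were read on the same arrays, so this gap leaves out variation between mice, dissections and arrays. Both probe sets gave the same sign in 367 of the 656 genes (55.9%), whereas each cardiac gene here was read by 1 probe set. Myh6 differed between the lungs by less than this gap, Tnni3 by 0.43, Pln by 0.57, and Myl7, Nppa, Actc1, Tnnt2 and Myl4 by 0.77 or more. A difference above the gap is not thereby shown to exceed the variation it leaves out.

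Against FULA 1, 7 of the 8 genes above the mark on the lungs were at least 2-fold higher on both lungs after quantile normalization, and Tnnt2 was the exception. These 8 were kept for lying above the mark on the lungs, which favours a higher lung value, so nothing is read from this count. Of the 10 genes 7 were at least 2-fold higher on the urethane lung, where 19.5% of genes past the floor were, and 8 were on the saline lung, where 22% were. None was at least 2-fold lower, against 22.1% of genes past the floor for the urethane lung and 22.6% for the saline lung. The median difference over the 10 was 1.89 for the urethane lung and 2.52 for the saline lung (log2, lung minus FULA 1), against 0.08 and 0.11 over all genes. As deposited both counts were 0 and the medians were -2.10 and -2.94, where the medians of all genes were -3.69 and -4.80. With the offset of 32 both counts were 0 as well, and the medians were 0.30 and 0.56, against 0.008 and 0.011 over all genes. For these settings the shares of all genes are not given. Both comparisons share the FULA 1 array.

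Where the FULA 1 value lay below the mark (1.96 on the log2 scale), the mark in its place gives a bound, which holds only for that mark. On these terms Myl7 was at least 3.08-fold higher on the urethane lung and at least 7.77-fold higher on the saline lung than on FULA 1. Myl4 was at least 4.51-fold and 7.68-fold higher, Actc1 at least 3.88-fold and 7.43-fold, and Nppa at least 2.48-fold and 5.00-fold, for the urethane and the saline lung in that order. Myh6 was at least 3.37-fold and 4.36-fold higher, and Pln at least 2.33-fold and 3.45-fold. With the stricter mark, which lay at 2.56 on FULA 1, each of these bounds would be smaller. With the offset of 32, Myl7 differed from FULA 1 by 0.33 for the urethane lung and 0.83 for the saline lung (log2). Tnni3, above the mark on all 3 arrays, was 5.13-fold higher on the urethane lung and 6.91-fold higher on the saline lung (2.36 and 2.79 on the log2 scale). These Tnni3 differences were 1.43 and 1.93 with all arrays set to the same median, and 2.96 and 3.77 after the lowess curve. Tnnt2 was the gene above the mark with the smallest difference, 0.25 for the urethane lung and 1.18 for the saline lung. With all arrays set to the same median Tnnt2 turned to -1.31 and -0.32, so its direction against FULA 1 is not settled.

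**Figure D4:**
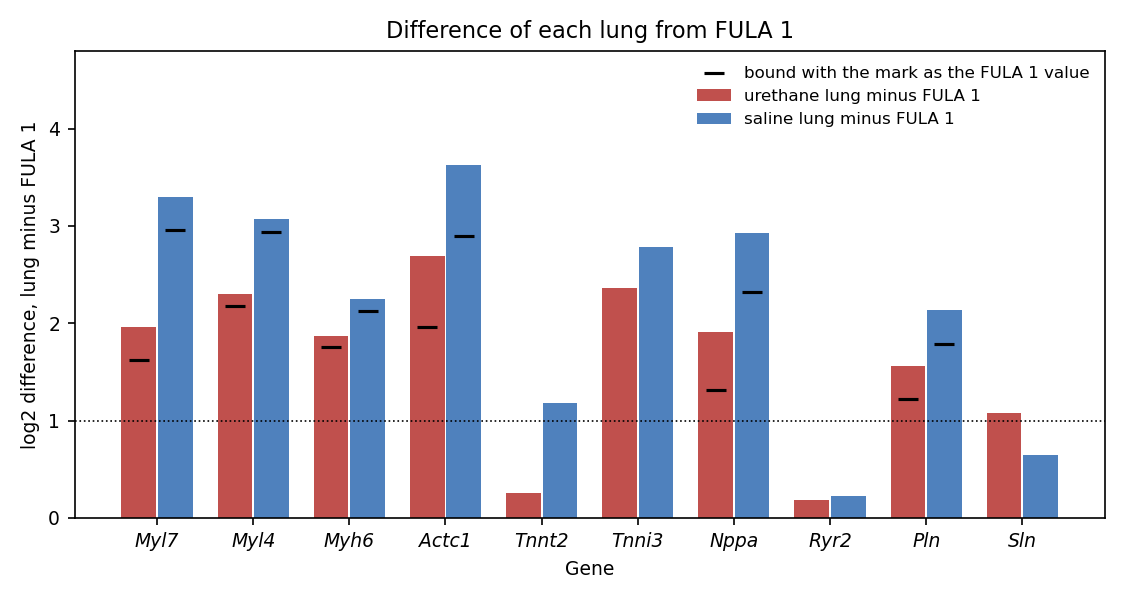
Difference of the urethane lung and the saline lung from FULA 1 (log2, quantile-normalized) for each cardiac gene; black ticks give the bound with the background mark as the FULA 1 value, and the dotted line is 2-fold. The saline bar is above the urethane bar for each gene except Sln, which, like Ryr2, lay below the mark on all 3 arrays and has no measured size.

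Other genes of heart muscle were taken from 5 further lists with 77 measured genes, written with the earlier results known. Of the 47 that passed the floor, 1 was at least 2-fold lower on the urethane lung than on the saline lung and 0 were at least 2-fold higher, against 1.31% and 3.27% of all genes past the floor. The median difference over the 77 was -0.10, and 28 of the 77 lay above the mark on both lungs, as did 44.1% of all genes.

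In the sarcomere list, 1 of 23 genes was at least 2-fold lower on the urethane lung, and the median was -0.12. That gene was Lmod2, an actin filament nucleator of heart muscle, at 2.24 on the urethane lung and 3.41 on the saline lung, a difference of -1.17. Its urethane value was shared by 834 probe sets and lay below the mark, and the bound of its difference was 0.97 in size, just short of 2-fold. Tpm1, a tropomyosin also made outside muscle, differed by -0.72, and Tnnc1, the calcium-binding troponin subunit of heart and slow muscle, by -0.12, although both shared 4.43 on the urethane lung with 153 probe sets in all. Ankrd1, a stress-induced muscle ankyrin repeat gene, differed by -0.40. Ldb3, a Z-disc gene, was at the other end at 0.78, with a bound of 0.55 because its saline value lay below the mark. Actn2 and Mybpc3, further heart muscle markers of this list, lay below the mark on every array. Of the 23 genes, 11 lay below the mark on both lungs, as did 10144 of all 22180 genes.

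Of 15 further calcium handling genes none passed 2-fold between the lungs, with a median of -0.05. Atp2a2, the gene of the SERCA2 pump, which most cells use, was highest at 0.98, with normalized values of 6.32 on the urethane lung and 5.34 on the saline lung. S100a1, a calcium sensor of heart muscle, was lowest at -0.87, and Camk2d, the calmodulin-dependent kinase of heart, differed by 0.10. Atp2a2 at 0.98 and Pln at -0.57 differed in sign, but Atp2a2 was higher on FULA 1, at 8.28, than on either lung. The part of heart muscle in the Atp2a2 value was not tested.

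Among 11 channel and connexin genes the median was -0.09. Hcn4, the pacemaker channel, was lowest at -0.78 (bound 0.46 in size, since its urethane value lay below the mark). Kcnj5, a subunit of the atrial acetylcholine-gated potassium channel, was highest at 0.61 (bound 0.12), and its urethane value was shared by 639 probe sets. Kcnq1 and Gja1, expressed in many tissues, differed by -0.10 and -0.09.

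The 17 regulators, most of them transcription factors, had a median of -0.05. Mef2a and Nr2f2, an atrial identity factor that veins also express, differed by -0.05 and 0.40, and Tbx3, a factor of the conduction system and of lung mesenchyme, by 0.41. Isl1 was lowest at -0.81 (bound 0.28 in size), and its urethane value was shared by 1089 probe sets. Nkx2-5, the heart factor that pulmonary vein muscle needs, was picked here after its values were seen. It lay at rank 86.4 on the urethane lung, 91.0 on the saline lung and 68.2 on FULA 1, above the mark on each. The difference between the lungs was -0.68, and the saline value of Nkx2-5 was shared by 69 probe sets.

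Of 11 energy and oxygen genes of muscle, 8 lay below 0, where 55.6% of all genes did, and the median was -0.39. Pgam2, a muscle phosphoglycerate mutase, was lowest at -0.85 (bound 0.46 in size). Eno3, the muscle enolase, differed by -0.78, Fabp3, the heart fatty acid binding protein, by -0.28, and Cox6a2, a heart and skeletal muscle subunit of cytochrome oxidase, by 0.03.

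**Figure D5:**
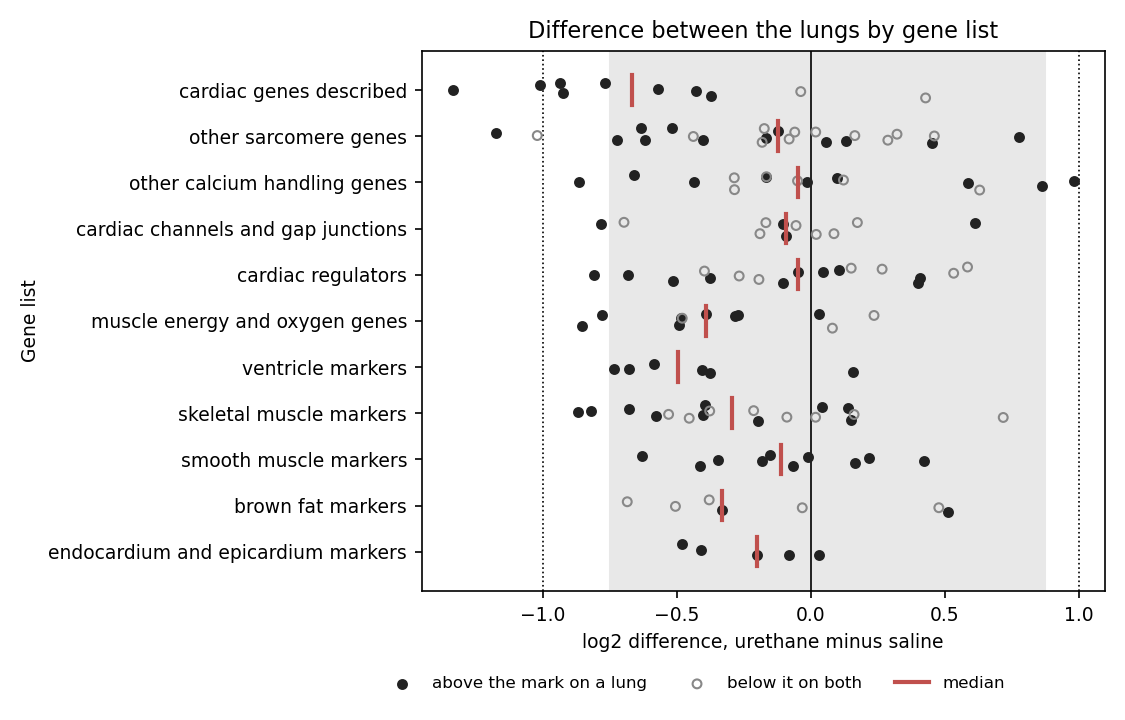
Difference between the lungs (log2, urethane minus saline) of each measured gene, by list; filled points lie above the background mark on at least 1 lung, open points below it on both, red bars are list medians, and the grey band holds the 5th to 95th percentile of genes past the floor (-0.75 to 0.87). The 10 cardiac genes described have a median of -0.67, the 5 further cardiac lists have medians of -0.39 to -0.05, and the ventricle markers have the next lowest median at -0.49.

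Markers of other muscle were read beside these values. Of 6 ventricle markers, 3 lay above the mark on the urethane lung and 6 on the saline lung, where 48.9% and 49.5% of all genes did. A difference below 0 was found in 5 of the 6 and in 55.6% of all genes, the median was -0.49, and the summed normalized level on the linear scale was 39.3 on the urethane lung, 50.1 on the saline lung and 21.8 on FULA 1. Myl2, the ventricular regulatory light chain, differed by -0.38 and Myh7, the beta myosin heavy chain, by -0.41. Nppb was lowest at -0.73 (lower by at least 0.15) and Hey2 highest at 0.16. The urethane values of Myh7 and Hey2 were shared by 412 and 339 probe sets, and the saline value of Nppb by 400.

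Of 18 skeletal muscle markers, 12 lay below 0 (median -0.30), where 55.6% of all genes did, with a summed level of 128 on the urethane lung, 152 on the saline lung and 65.6 on FULA 1. Among those above the mark on a lung, Atp2a1 was lowest at -0.87 and Myh4 highest at 0.15, and Acta1 and Pvalb differed by -0.20 and -0.58. The skeletal muscle regulators Myog and Myod1, singled out after their values were seen, lay above the mark on all 3 arrays, at ranks of 68.2 and 77.1 on the urethane lung, 79.8 and 75.3 on the saline lung and 49.7 and 54.7 on FULA 1. Their urethane values were shared by 559 and 339 probe sets. A place above the mark is therefore no proof of the RNA.

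The 10 smooth muscle markers lay above the mark on both lungs, as did 44.1% of all genes, with a median of -0.11 and summed levels of 220.2 on the urethane lung, 240.4 on the saline lung and 52.7 on FULA 1. Acta2 differed by -0.41, Cnn1, the lowest, by -0.63, Mylk by 0.22 and Des, which heart muscle shares, by 0.42, the highest. The saline value of Cnn1 was shared by 132 probe sets. Endocardium and epicardium markers, which lung also expresses, had a median of -0.20 over 5 genes and summed levels of 136 on the urethane lung, 162 on the saline lung and 27.3 on FULA 1. Tcf21 differed by -0.48, Npr3 by -0.20 and Nfatc1 by 0.03. Brown fat markers had a median of -0.33 over 7 genes and summed levels of 88.8 on the urethane lung, 103 on the saline lung and 41.3 on FULA 1. The lung sums came mainly from Fabp4, at 5.93 on the urethane lung and 6.26 on the saline lung (log2). Of the 7 genes, 5 lay below the mark on both lungs, as did 10144 of all 22180 genes. The defining genes Ucp1 and Cidea lay below the mark on every array, and Plin1 and Fabp4 differed by 0.51 and -0.33. The part of these tissues in the values of the cardiac genes was not tested.

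The protein-coding genes nearest to Myl7 were sought by Euclidean distance over the 3 normalized values. This distance takes in the brightness of the probe sets as well as the pattern over the arrays. The nearest were Fcer1g, the Fc receptor gamma chain, at a distance of 0.36, Cma2, a mast cell chymase, at 0.40, Rpl39l, a ribosomal protein gene, at 0.43, Pf4, a platelet chemokine, at 0.45, and the olfactory receptor gene Olfr1039 at 0.48. Olfr1039, of the family that set the background mark, lay above it at rank 81.9 on the urethane lung and 91.7 on the saline lung. It differed by -1.35 between the lungs, so a gene of the background family showed a pattern like that of Myl7. Of the cardiac genes, Actc1 was nearest at 0.52, with 7 other genes nearer, followed by Myl4 at 0.59 with 13 nearer and Nppa at 0.75 with 42 nearer. With 3 arrays, many genes lie close to any pattern.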

How the data were processed

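RNA was biotin-labelled with a whole-transcript kit, per the labels' protocols. Each probe set has a deposited log2 value on each array, made by the authors with RMA, per the submitters' processing notes, and GeneSpring GX 12.5, per the series' design text. The sources used here give no further settings and no array build, and 0 columns of other samples were present. Since the arrays differed in scale, they were quantile-normalized to the mean of the 3 sorted columns, ties at their mean rank; this step was tested on simulated data. Of the probe sets, 23521 carried 1 symbol, 1814 several and 16010 none, and 23328 of the single symbols were matched to RefSeq (GRCm38.p6). A gene was the mean of its probe sets. The size rule was 2-fold with the higher value at or above the floor. Members and lists were chosen with earlier results of these data known; 133 of 137 list entries were used, and the others are not reported here. Named genes were all 10 cardiac genes and the 5 nearest to Myl7. Per list they were the 3 highest in mean rank on the lungs and the highest and lowest difference among genes above the mark. Others are said to be picked later. Ucp1 and Cidea are defining markers, and Actn2 and Mybpc3 are listed heart muscle markers. Promoter windows were searched on both strands. The stricter mark was added to the planned settings after the data were seen. Python 3.11.15, pandas 2.3.3, numpy 2.4.6, statsmodels 0.14.6 and matplotlib 3.10.9 were used. The number of arrays limits the precision.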

Additional observations from a re-analysis of the deposited data

How the results depend on the processing

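No paired analysis was possible because each group has 1 array and no test was run. A value was taken as moved where it changed by more than the median gap between a gene's paired probe sets (0.40 between the lungs, 0.94 and 0.95 for the saline and urethane lung against FULA 1), and a count where it changed by over 1.5 times. As deposited, the medians of the 10 genes were 0.55 (urethane minus saline), -2.94 (saline minus FULA 1) and -2.10 (urethane minus FULA 1), that of the 77 further cardiac genes was 1.10, and the medians of all genes were 1.09, -4.80 and -3.69; the counts of the 10 past 2-fold were 0, 0 and 0, and those of the 77 were 0 lower and 16 higher. Nppa was then at 0.37 between the lungs. Against FULA 1, for the urethane and then the saline lung, the deposited differences were -1.83 and -1.81 for Myl7, -1.72 and -2.18 for Myl4, -2.08 and -3.03 for Myh6, -0.73 and -1.05 for Actc1, -2.31 and -2.96 for Tnni3, -1.60 and -1.97 for Nppa and -2.12 and -2.93 for Pln, and -5.21 for Tnnt2 on the saline lung; Tnnt2 was at -0.32 with the median shift. Of the 10 genes, the number at least 2-fold lower on the urethane lung was 1 with the median shift, with lowess and with the lungs alone, 0 with the offset of 32, 3 with FULA 1 quantiles, 5 at 1.5-fold and 0 at 4-fold. Offset values also moved the 3 medians to -0.27, 0.56 and 0.30 and the FULA 1 counts to 0. The urethane count against FULA 1 was 3 at 4-fold and 4 with a floor at the 75th percentile, and its median was 3.01 with FULA 1 quantiles. Of the 77 genes, 7 were lower and 4 higher with FULA 1 quantiles, 11 and 6 at 1.5-fold, 0 and 1 with lowess and with the lungs alone; 2 were lower without a floor, and 0 with the offset, with values held at the mark, at 4-fold and with the higher floor. The cause was not tested, except that the threshold, floor and offset act by construction. The shares of all genes under these other settings are not given, so nothing is read from the counts. Of the single genes' differences between the lungs, 63 of 80 alternative values stayed within the gap of the reported value. Some of these could not move. Taking the brightest probe set changes nothing where a gene has 1 probe set. Holding values at the mark changes nothing for genes above it on both lungs. On the given strand alone AAGTG was found in 4 genes, CATTCC in 2 and AGATAA in 0. The shares of all windows on that strand were 27.3%, 7.54% and 5.86%. Ties and background limit what low values can show.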

Other observations

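Some genes of the further cardiac lists were higher on FULA 1 than on either lung. Ankrd1 had normalized log2 values of 5.15 on the urethane lung, 5.55 on the saline lung and 9.14 on FULA 1, a difference from FULA 1 of -3.99 for the urethane lung and -3.59 for the saline lung; it is also known as a target of YAP and TAZ outside muscle. Atp2a2 differed by -1.96 and -2.94, and Camk2d by -1.58 and -1.67, for the urethane and the saline lung in that order. Eno3 differed by -2.46 and -1.68, and Gja1, the connexin 43 gene, by -1.58 and -1.49. For the urethane lung against FULA 1, 43 of the 77 further genes passed the floor; 9 of these were at least 2-fold lower and 17 at least 2-fold higher, against 22.1% and 19.5% of all genes past the floor. For the saline lung 44 passed it; 7 were at least 2-fold lower and 26 at least 2-fold higher, against 22.6% and 22%.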
